A study of Sus scrofa with 10 samples.

Results

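Radial glia of the fetal pig entorhinal cortex were taken here as the cells of 5 libraries (E50_1, E60_3, E70_1, E70_2 and E70_3) that met a rule on raw counts of unique molecular identifiers (UMIs). A member had at least 4 UMIs of SOX2, SOX9 and HES1 together and at least 1 UMI of SOX2 or SOX9. It also had at most 4 UMIs of AQP4, 0 of EOMES, at most 1 of GAD1 and GAD2, at most 2 of PDGFRA, CSPG4 and OLIG1, at most 2 of COL1A1 and RGS5, and at most 5 of C1QA and C1QB. HOPX and CLDN5, which the rule also names, matched no gene in the files by name, so they added nothing and were not analysed here. The rule found 809 of the 12432 cells of these libraries (6.51%, exact 95% confidence interval (CI) 6.08 to 6.96) and 2.87% of all 28229 cells of the series. The CIs of shares here cover counting error only.

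Whole cells of fetal brains from a production farm were dissociated with papain and captured on the 10X Genomics platform, and every library is labelled as cells of the entorhinal cortex without a treatment, genotype or sex. E50_1 was taken at embryonic day 50 from 3 pooled brains, E60_3 at day 60 from 2 brains, and E70_1, E70_2 and E70_3 at day 70 from 2, 1 and 1 brains. E50_1, E60_3 and E70_1 therefore mixed animals that the labels do not separate, while E70_2 and E70_3 came from 1 brain each. Days 50 and 60 each had a single library. The study asked which cell types arise when in the developing medial entorhinal cortex, and the comparisons below follow the radial glia between libraries and days.

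Radial glia are the stem cells of the developing cortex. They line the ventricle, keep a long process that reaches the brain surface, and divide to give neurons either directly or through EOMES-positive intermediate progenitors (IPs). Notch signalling through HES1 holds them in the progenitor state, the SOX2 and SOX9 transcription factors maintain their stem cell programme, and late in development many of them turn into astrocytes. Outer radial glia, which leave the ventricle, are abundant in species with a folded cortex such as the pig.

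The label of cortical radial glia held for most members, but a group of them in E50_1 carried genes of the midbrain. EMX1, EMX2, LHX2 and DMRTA2, which pattern the dorsal forebrain, had a UMI in 265 of the 550 members of E50_1 (48.2%) while PAX3, PAX7, EN1 and EN2, which pattern the midbrain, had none. The reverse was found in 185 members (33.6%), both groups of genes were found in 33, and neither in 67. These region genes were chosen after the values were seen. In the microglia of E50_1, which should lack both groups, 19.8% of 126 cells had forebrain genes only and 5.56% had midbrain genes only, at a median of 11387.5 UMIs per cell against 9022.5 in the members. Of the 133 IPs of E50_1, 114 had forebrain genes only and 2 had midbrain genes only. In E60_3, 108 of 128 members had forebrain genes only and 3 had midbrain genes only. In E70_3 the numbers were 102 and 0 of 126. Over the 5 libraries 479 members (59.2%) had forebrain genes only and 188 (23.2%) had midbrain genes only. The members of E50_1 are therefore called radial glia by the rule and not cortical. Members with forebrain genes only are called forebrain members below. Their shares, mitosis shares and counts of day slopes are given beside those of all members. The marker levels against other classes and most list counts cover all members. In E50_1, levels differed between all members and forebrain members for PAX6 (112 and 181 CPM, UMIs per 1000000 UMIs), ID3 (115 and 44.8) and GFAP (65.7 and 30.4).

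E70_1 and E70_2 held 2 and 3 members, so that their values rest on single cells. The cell barcodes shared by pairs of the 5 libraries were 78, and 1 of them was shared by members, of E50_1 and E70_3. PECAM1, FLT1 and CD34, genes of endothelial cells, which the rule did not limit, had a UMI in 21.5% of the members of E50_1, 23.4% in E60_3 and 19.8% in E70_3. In the neurons of the same libraries, named by NEUROD2 and NEUROD6, the shares were 17.5%, 22.1% and 22.7%. In E70_1 and E70_2 they were 1 of 2 and 2 of 3 members, and 75.0% and 62.5% of the neurons.

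Members made up a larger share of the cells in the library of day 50 than in those of later days, which held less clearly for the forebrain members. There were 550 members among 5506 cells of E50_1 (9.99%, CI 9.21 to 10.8), 128 of 2696 in E60_3 (4.75%, CI 3.98 to 5.62) and 126 of 3120 in E70_3 (4.04%, CI 3.38 to 4.79). E70_1 had 2 of 493 (0.406%, CI 0.0492 to 1.46) and E70_2 had 3 of 617 (0.486%, CI 0.100 to 1.41). The mean of the 3 libraries of day 70 was 1.64% ± 2.07 (SD, n = 3), so that E70_3 lay closer to E60_3 than to the other libraries of its own day. Forebrain members alone were 4.81% of the cells of E50_1 (CI 4.26 to 5.41), 4.01% in E60_3 (CI 3.30 to 4.82) and 3.27% in E70_3 (CI 2.67 to 3.95), so that the CIs of E50_1 and E60_3 overlapped. In E70_1 and E70_2 they were 0.406% and 0.324%, and over the 5 libraries 3.85%. No test was made of the share, because its denominator counts whatever other cells a dissection held and days 50 and 60 had 1 library each. E50_1 gave 68.0% of all members. The members had a median of 9287 UMIs per cell, with medians between 9022.5 and 14108.5 in the 5 libraries.

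**Figure D1:**
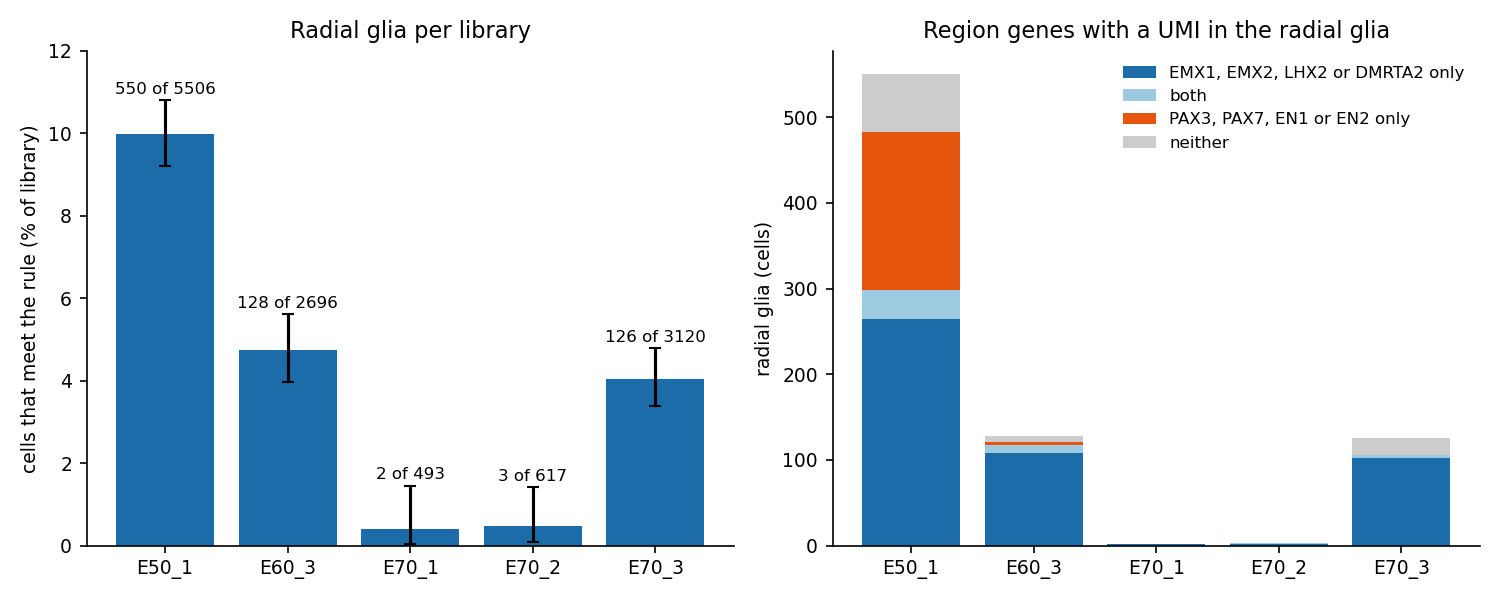
Left, the share of cells that met the radial glia rule in each library (percent, with exact 95% CIs and the numbers of cells), highest in E50_1 at 9.99% and under 0.5% in E70_1 and E70_2. Right, the members of each library (cells) by the region genes they held, where the 185 members with midbrain genes only stood in E50_1 and 3 in E60_3.

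Each step of the rule removed different cells in different libraries. In E50_1, 1073 cells had enough UMIs of SOX2, SOX9 and HES1 and 550 were left by the exclusions. There 226 of them exceeded the limit on PDGFRA, CSPG4 and OLIG1, genes of the oligodendrocyte lineage, and 196 that on AQP4, the water channel of astrocytes. In E70_3, 343 cells had enough UMIs and 182 of them exceeded the limit on AQP4, which left 126. In E70_1 and E70_2, 24 and 35 cells had enough UMIs before the exclusions. At the limit of 4 UMIs stood 165 members, with 1840 UMIs of VIM and 2159 of FABP7 per 1000000 UMIs (CPM). The 183 cells that met the other conditions at 3 UMIs had 1226 CPM of VIM and 1345 of FABP7.

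The genes of the rule, whose levels are a description, had a different mix at day 50 than later. SOX2, on chromosome 13 of Sscrofa11.1 from 119668476 to 119669435, was at 576 CPM in E50_1, 165 in E60_3, 177 in E70_1, 279 in E70_2 and 190 in E70_3. SOX9, on chromosome 12 from 8642154 to 8647315, was lowest in E70_1 and E50_1, with 35.4 and 56.3 CPM, and reached 216 in E60_3, 155 in E70_2 and 211 in E70_3. HES1, on chromosome 13 from 131135970 to 131137865, was at 166, 193 and 219 CPM in E50_1, E60_3 and E70_3. All 3 genes had a UMI in 28% of the members of E50_1, 54.7% in E60_3 and 43.7% in E70_3. In E50_1 another 106 members qualified by SOX2 alone, against 3 in E60_3 and 2 in E70_3. AQP4 was at 0 in 60.4% of the members of E50_1, 28.1% in E60_3 and 39.7% in E70_3.

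Outside the rule, the members carried the textbook genes of radial glia above the other cells of their own library. Of 12 further radial glia markers, 9 were at least 2-fold higher than in the other cells in each of E50_1, E60_3 and E70_3, after 5 CPM were added to both levels. Of all 13757 genes with 5 CPM or more, 218 met this (1.58%). The 9 genes were VIM, PAX6, SLC1A3, FABP7, GLI3, PTPRZ1, TNC, NR2E1 and ID4. As the members were selected on measured counts of the same cells, these levels describe them and were not tested. VIM, the intermediate filament of radial glia, on chromosome 10 from 43516441 to 43526172, was at 2559, 1455 and 615 CPM in E50_1, E60_3 and E70_3. The other cells of these libraries had 547, 408 and 181 CPM. FABP7, a fatty acid carrier of radial glia, was at 3054, 3601 and 3908 CPM in the members and at 495, 727 and 1026 CPM in the other cells. SLC1A3, a glutamate transporter, was at 369, 623 and 548 CPM against 101, 255 and 216.

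Part of the outer radial glia genes stood above the other cells from day 50, but not above astroglia. Of 8 such genes matched, FAM107A, TNC, PTPRZ1 and PTN were at least 2-fold above the other cells in the 3 large libraries. Against the astroglia defined below, 0 of the 8 were at least 2-fold higher in any library. PTN, a secreted growth factor, was at 5069, 7641 and 7220 CPM in the members and 1046, 1268 and 1879 CPM in the other cells. In astroglia PTN was at 8028, 10403 and 11580 CPM. FAM107A was at 12.4 CPM in E50_1, 64.6 in E60_3 and 44.2 in E70_3. CRYAB, known from radial glia that stay at the ventricle, was at 236, 631 and 1198 CPM in these libraries and at 0 in E70_1 and E70_2.

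Against IPs, named here by at least 2 UMIs of EOMES (381 cells), the members differed by their glial genes. VIM, SLC1A3, FABP7, PTPRZ1, TNC and ID4, which are 6 of the 12 markers, were at least 2-fold higher than in IPs in all 3 large libraries, as were 212 of 13797 genes (1.54%). ID3, a target of BMP signalling, was at 115, 99.8 and 184 CPM in the members and 11.5, 3.77 and 3.37 CPM in IPs. PAX6, on chromosome 2 from 28971565 to 29001149, did not separate these classes, with 112, 160 and 139 CPM in the members and 132, 175 and 155 CPM in IPs. Of the 8 IP markers, EOMES, NEUROD1, NEUROD4 and HES6 were at least 2-fold lower in the members, as were 108 of all genes (0.783%). EOMES was set to 0 by the rule.

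Against astroglia, named by over 4 UMIs of AQP4 (579 cells), 0 of the 12 radial glia markers and 0 of 13514 genes (0%) were at least 2-fold higher in the members in all 3 libraries. At least 2-fold lower in all 3 were 11 genes (0.0814%), among them AQP4, GFAP, APOE, S100A1 and S100A6. GFAP, the intermediate filament of astrocytes, was at 65.7, 130 and 314 CPM in the members and at 341, 274 and 675 CPM in astroglia. S100A6 was at 37.5, 71.0 and 89.3 CPM against 404, 213 and 294. FABP7 was higher in astroglia, with 4459, 5305 and 5689 CPM. Astroglia were named by AQP4 alone and did not have to meet the limit on SOX2, SOX9 and HES1, and 63 members stood at the AQP4 limit with 4 UMIs.

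**Figure D2:**
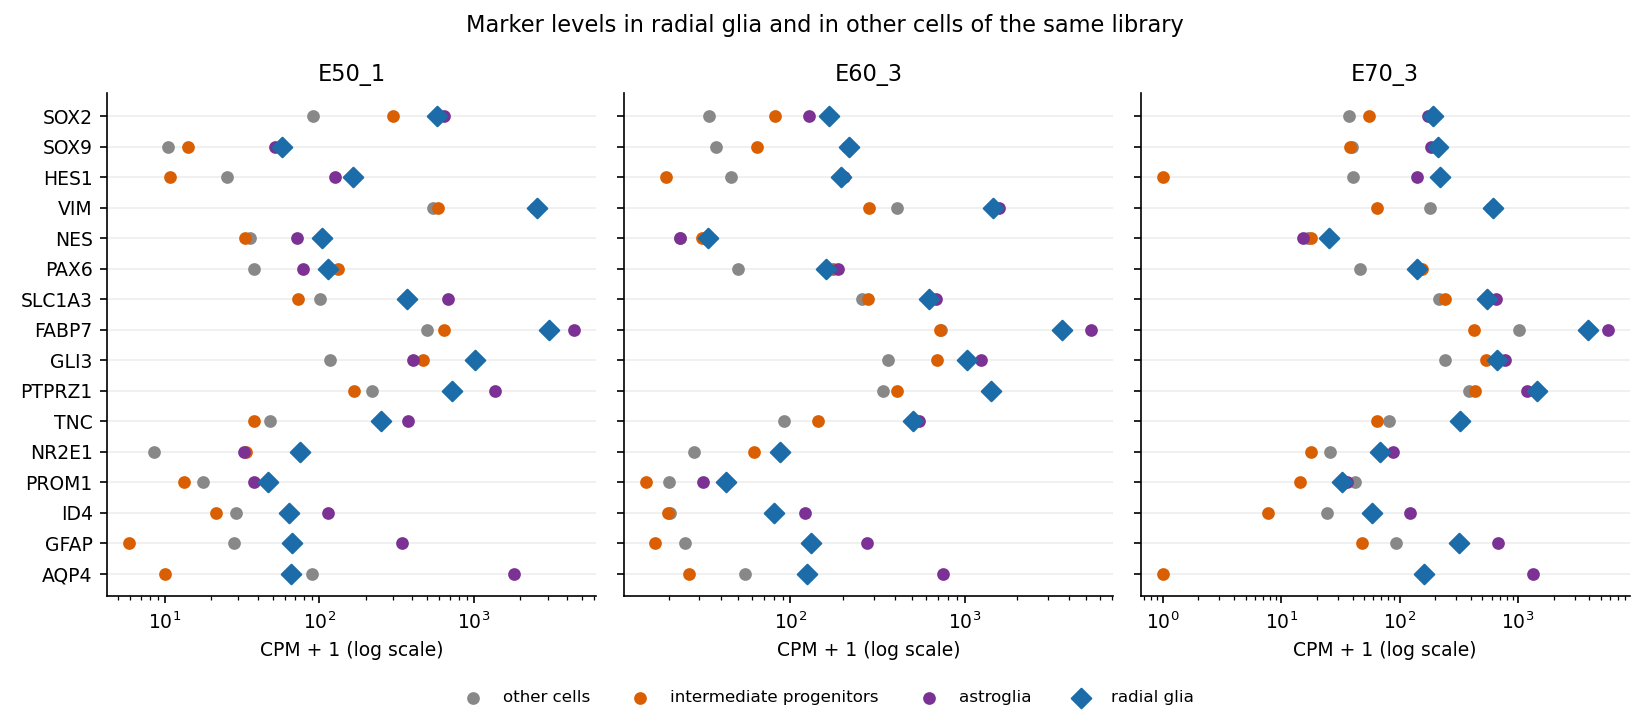
Levels (CPM + 1, log scale) of the genes of the rule and further markers in radial glia, IPs, astroglia and all other cells of E50_1, E60_3 and E70_3, 1 point for each class and library. The radial glia lie right of IPs and other cells for VIM, SLC1A3, FABP7, PTPRZ1 and TNC in all 3 libraries, and left of astroglia for GFAP and AQP4.

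Signalling and structural genes known from radial glia were higher in part. Of 17 Notch genes, the receptor NOTCH2 and the effector HEY2 were at least 2-fold above the other cells in the 3 large libraries, with NOTCH2 at 101, 181 and 132 CPM against 23.5, 66.6 and 44.6. Of 35 genes of the FGF, SHH, BMP and Wnt pathways, 9 met this, namely FGFR3, ETV4, ETV5, GLI2, GLI3, BMPR1B, ID4, TCF7L1 and SFRP1. ETV5, a transcription factor downstream of FGF receptors, was at 106, 150 and 113 CPM in the members and 27.9, 49.3 and 43.1 CPM in the other cells. BMPR1B, a BMP receptor, was at 138, 138 and 192 CPM against 40.8, 41.4 and 65.9. Of 23 polarity, adhesion and matrix genes, TNC, BCAN and PTPRZ1 met this. Markers of other cell types that the rule did not limit were lower in part. At least 2-fold lower than in the other cells in all 3 libraries were 332 of all genes (2.41%), among them 6 of 6 such microglia markers, 7 of 10 of excitatory neurons and 3 of 5 of vascular cells. So were 2 of 4 erythroid markers and 1 of 7 of IPs, but 0 of 5 of interneurons, 0 of 5 of the oligodendrocyte lineage and 0 of 4 of the choroid plexus and ependyma. Of 17 astrocyte markers other than AQP4, 6 were at least 2-fold higher in the members and 0 lower.

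Within E50_1 the forebrain members and the members with midbrain genes only differed in more than the genes that split them. Among 2473 genes with 100 CPM or more in either, 37 were at least 4-fold higher in the forebrain members and 38 in those with midbrain genes. RYR3, a calcium release channel, was at 450 CPM in forebrain members and 14.2 in the others, and at 517 and 483 CPM in the forebrain members of E60_3 and E70_3. NR2E1 (TLX), a nuclear receptor of forebrain stem cells, was at 137 against 7.97 CPM. FEZF2, which directs deep-layer neuron fate, was at 153 against 9.68 CPM. GABRB1, a GABA receptor subunit, was at 792 against 49.0 CPM. On the other side, EFNA5, a guidance ligand that is graded across the midbrain roof, was at 1589 CPM in members with midbrain genes and 42.6 in forebrain members. SPARCL1, a matrix protein, was at 778 against 44.8 CPM. APOE, a lipid carrier, was at 1262 against 111 CPM. DBX1, a progenitor transcription factor, was at 116 against 1.81 CPM, and WLS, needed to secrete Wnt proteins, at 217 against 18.1 CPM. Both groups came from 1 library, so no test was made, and the median depth was 9512 UMIs in forebrain members and 8304 in the others.

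**Figure D3:**
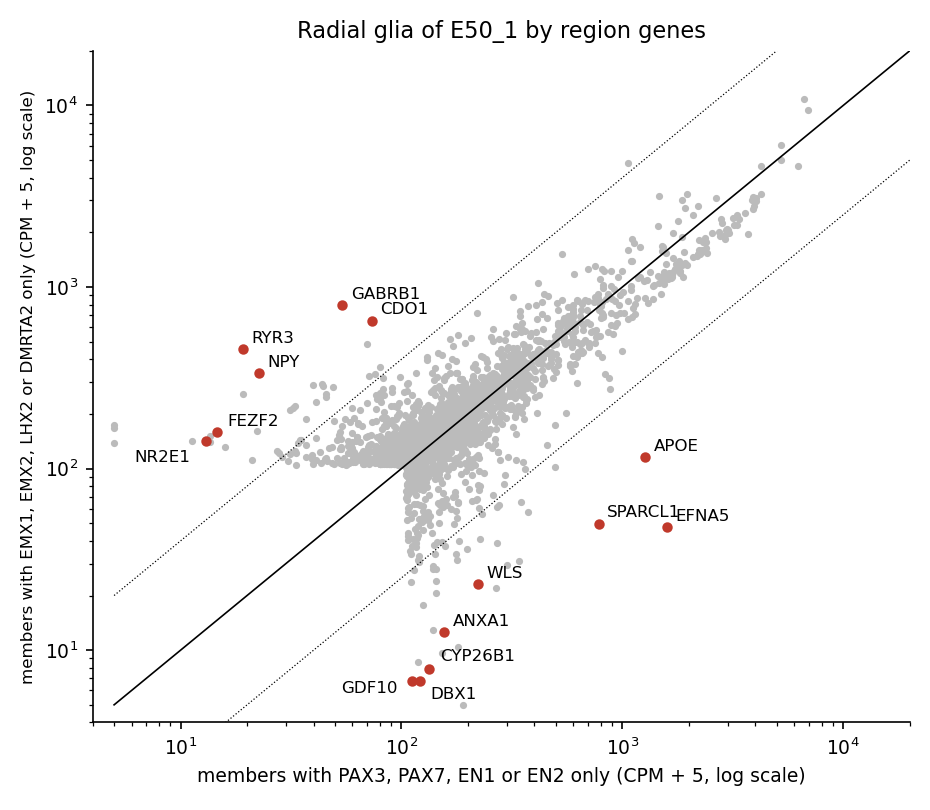
Levels (CPM + 5, log scales) of 2473 genes in the radial glia of E50_1 with midbrain genes only (x axis) and with forebrain genes only (y axis), 1 point for each gene, with dotted lines at 4-fold. RYR3, GABRB1, NPY, FEZF2 and NR2E1 stand above the upper line, and EFNA5, SPARCL1, APOE and WLS below the lower line.

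Mitosis genes were frequent in the radial glia. After each cell was thinned to 2000 UMIs, 195 of 550 members of E50_1 had 2 or more UMIs of 9 mitosis genes (35.5%, CI 31.5 to 39.6). The share was 25.8% in E60_3 (CI 18.5 to 34.3) and 32.5% in E70_3 (CI 24.5 to 41.5), and 1 of 2 and 0 of 3 members in E70_1 and E70_2. In neurons of the 5 libraries, taken as the background of free RNA, it was 7.32% (CI 6.38 to 8.34). Over the 5 libraries the share was 33.4% (CI 30.1 to 36.7) in radial glia, 25.5% (CI 21.2 to 30.1) in IPs and 15.5% (CI 12.7 to 18.8) in astroglia. The IPs of E50_1, E60_3 and E70_3 had 33.1% (CI 25.2 to 41.8), 26.6% (CI 19.1 to 35.1) and 23.3% (CI 11.8 to 38.6). The forebrain members of these libraries had 46.0% (CI 39.9 to 52.2), 29.6% (CI 21.2 to 39.2) and 34.3% (CI 25.2 to 44.4), and the differences to IPs were not tested. No cell of these classes had fewer than 2000 UMIs. Without thinning the shares in the members were 65.1%, 78.1% and 67.5% in E50_1, E60_3 and E70_3, and in neurons 48.5%, 60.5% and 58.1%. Of 50 genes of the G2 and M phases, 30 were at least 2-fold above the other cells in the 3 large libraries, as were 0 of 41 genes of the S phase.

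**Figure D4:**
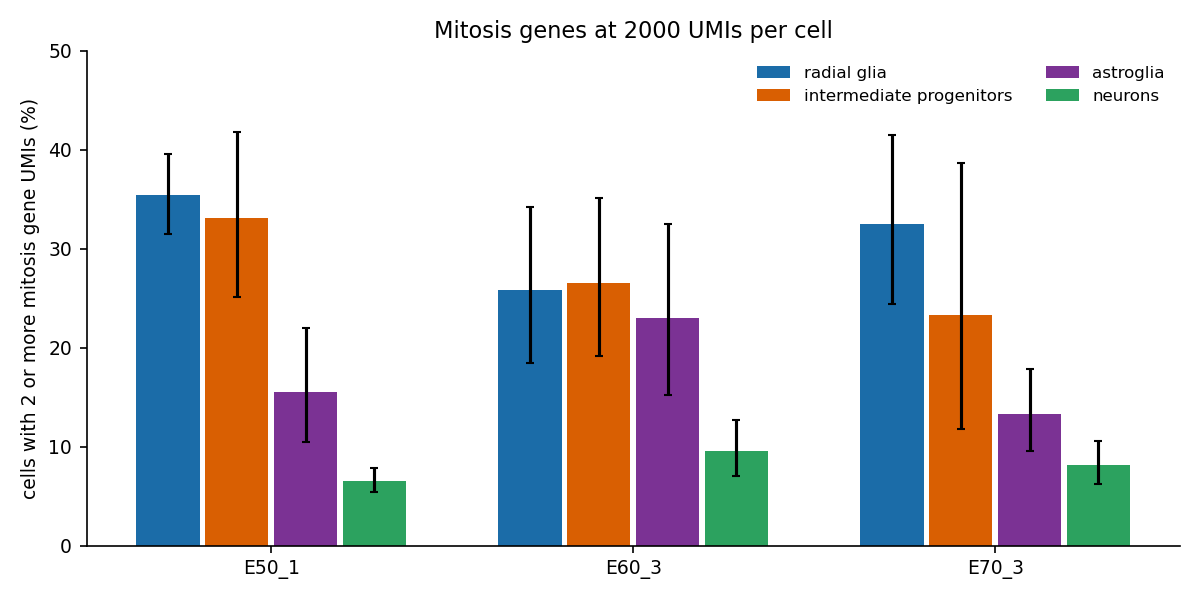
Share of cells (percent, with exact 95% CIs) with 2 or more UMIs of mitosis genes at 2000 UMIs per cell, for 4 cell classes in E50_1, E60_3 and E70_3. Radial glia stood at 35.5%, 25.8% and 32.5%, above the neurons in each library, and overlapped with IPs.

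Between days 50 and 70 genes rose and fell in the summed radial glia of the 5 libraries, and most of those that fell were also lower in the other cells of the same libraries. UMIs were summed over the members of a library and tested with edgeR's quasi-likelihood test for a slope over the day, given as log2 change per 10 days. Of 11245 genes tested, 152 rose (1.35%) and 265 fell (2.36%) at an adjusted p under 0.05, and 607 and 743 genes had an unadjusted p under 0.05. Most calls were lost with the sequencing pool as a block, which called 34 rises and 2 falls and kept 26 of the 152 and 2 of the 265. DESeq2 called 51 and 10 and kept 36 of the 152 and 6 of the 265. Of the 265 that fell, the level in E70_3 was at least 2-fold below that of E50_1, after 5 CPM were added, for 265 (100%) in the members. The same held for 230 (86.8%) in IPs, for 173 (65.3%) in microglia and for 239 (90.2%) in all other cells. Over all tested genes this held for 7.67% in the members, 13.1% in IPs, 8.42% in microglia and 6.003% in all other cells. Of the 152 that rose, 103 (67.8%) were at least 2-fold higher in E70_3 than in E50_1 in the members, 95 (62.5%) in IPs, 70 (46.1%) in microglia and 80 (52.6%) in all other cells. Over all tested genes the shares were 8.19%, 15.9%, 11.7% and 4.93%. The difference between the slopes of members and IPs was called for 0 of the 152 and 9 of the 265 genes. Over all genes tested for both it was called for 20 of 11108. Without E50_1 there were 0 calls in either direction, so that the slopes rest on that library. As E50_1 was the only library of its day, the spread between libraries of that day was not measured. Between E60_3 and E70_3, which shared a sequencing pool by the study's library list, 104 of the 152 genes (68.4%) were higher and 219 of the 265 (82.6%) lower on the later day. The same held for 45.2% and 54.8% of all tested genes. The genes were called on sums that included E50_1, E60_3 and E70_3. The shares in the members are therefore favoured by that choice and are no separate support for the calls.

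Most of the genes that rose with the smallest p were high in E70_1 and E70_2 in every cell class. The 12 with the smallest p were EIF1AY, MGST2, DDX3Y, CPVL, TEX49, LIX1, MGARP, MAP3K3, SUSD4, SLC9B2, FYB1 and VPS37A, with slopes of 1.79 to 2.55. In radial glia, IPs, astroglia, microglia and all other cells alike, 10 of the 12 were higher in E70_1 and E70_2 than in the other libraries, and EIF1AY and DDX3Y were not. TEX49 was at 101 CPM in the members of E50_1, 606 in E60_3, 4005 in E70_1, 3166 in E70_2 and 815 in E70_3. In the microglia of these libraries it was at 101, 625, 3594, 3099 and 758 CPM. MGST2, an enzyme of glutathione conjugation, was at 7.46, 17.9, 425, 528 and 22.5 CPM, with E70_3 close to E60_3. In microglia MGST2 was at 4.49, 14.6, 273, 325 and 12.4 CPM. DDX3Y, a gene of the Y chromosome, was at 1.78, 53.1, 70.9, 31.0 and 98.9 CPM in the members and at 0.821, 62.2, 13.9, 33.3 and 121 CPM in IPs. EIF1AY, also of the Y chromosome, was at 0.178, 33.3, 0, 0 and 76.4 CPM in the members. All other cells of E50_1 held 2.97 CPM of DDX3Y and 1.88 of EIF1AY. As the labels give no sex, a difference in sex between the libraries cannot be told apart from the day for these genes. PAX2, the member of the midbrain, hindbrain and ventral patterning list that rose (slope 1.54 ± 0.40 (SE), edgeR adjusted p = 0.00708), was likewise at 379 and 373 CPM in the microglia of E70_1 and E70_2. PAX2 also rose outside these libraries, at 9.03, 50.9 and 81.1 CPM in the forebrain members of E50_1, E60_3 and E70_3. Without E70_1 and E70_2, 37 of the 152 genes were still called.

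The genes that fell with the smallest p were highest in E50_1. The 12 with the smallest p were APOE, TMEM160, TRAPPC5, TUBB3, EFNA5, SIVA1, TPGS1, ZNF428, UNC119, YBX1, CTXN1 and NDUFS6, with slopes of -4.66 to -2.03. In IPs and in microglia 11 of the 12 were also highest in E50_1, with EFNA5 as the exception, and in astroglia and all other cells 12 of 12 were. TUBB3, a tubulin of neurons, was at 654, 20.5, 106, 0 and 8.84 CPM in the members of E50_1, E60_3, E70_1, E70_2 and E70_3, and at 506 CPM in the microglia of E50_1 and 19.2 in those of E60_3. YBX1, an RNA-binding protein, fell from 1555 CPM in E50_1 to 175 and 143 in E60_3 and E70_3, and in IPs the values were 1592, 170 and 148 CPM. APOE was at 897, 20.5, 0, 31.0 and 20.1 CPM in the members, with a slope of -2.84 ± 0.38 (SE, edgeR adjusted p = 4.2e-10). In forebrain members its slope was -1.29 (adjusted p = 0.00967), and the microglia of E50_1 held 5909 CPM of APOE against 435 in E60_3. EFNA5 was at 668, 17.9, 0, 93.1 and 11.3 CPM with a slope of -2.78 ± 0.40 (SE, adjusted p = 7.93e-09), and in forebrain members the slope was -1.03 and the call was lost (adjusted p = 0.110). In forebrain members 136 of 10750 genes rose (1.27%) and 222 fell (2.07%), which included 102 of the 152 and 191 of the 265 genes above.

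Among the radial glia markers outside the rule, 2 of 11 tested fell and 0 rose. VIM fell (slope -1.06 ± 0.33 (SE), edgeR adjusted p = 0.0373) from 2559 CPM in E50_1 to 1455 in E60_3, 780 and 993 in E70_1 and E70_2 and 615 in E70_3. IPs had 583, 282 and 63.9 CPM of VIM in E50_1, E60_3 and E70_3. NES, another intermediate filament of neural stem cells, fell (slope -1.22 ± 0.33 (SE), edgeR adjusted p = 0.0144) from 103 CPM to 32.6, 0, 0 and 24.1 CPM. In forebrain members neither passed the test, with slopes of -0.96 (adjusted p = 0.0958) and -0.87 (adjusted p = 0.178). Over the alternative settings VIM kept its call in 7 of 20 and NES in 9 of 18, without a change of direction. The other 9 markers were not called, among them PAX6 (slope 0.01), SLC1A3 and PTPRZ1 (both -0.09) and FABP7 (-0.29). The median slope of the 11 was -0.19, against -0.08 for all tested genes.

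Other lists, counted without the genes of the rule, held few calls, against 1.35% of all tested genes that rose and 2.36% that fell. Nothing particular to a list is read from 1 or 2 calls. None of the 8 outer radial glia genes and none of 13 Notch genes was called, with median slopes of 0.04 and -0.08, and none of 14 genes of the gliogenic switch (-0.07). Of 30 genes of the FGF, SHH, BMP and Wnt pathways, ID1, LEF1 and WNT7A fell. ID1, a target of BMP signalling, was at 272, 15.3, 35.4, 31.0 and 20.9 CPM (slope -1.88 ± 0.37 (SE), adjusted p = 7.77e-05), and IPs held 90.3 CPM of it in E50_1 and 7.54 in E60_3. Of 9 early progenitor genes, HMGA1, a chromatin protein of young stem cells, and CCND1, a cyclin, fell. HMGA1 was at 129, 23.7, 70.9, 93.1 and 7.24 CPM. Of 15 astrocyte genes APOE and SPARCL1 fell, and GFAP was not called with a slope of 0.93 (adjusted p = 0.201). Of 39 S phase genes MCM5 and TYMS fell, and of 49 genes of G2 and M GTSE1 and CDC20. In forebrain members 5 of 39 and 2 of 49 fell, against 2.07% of all genes tested there. HES6, from the IP list, fell (slope -2.10, adjusted p = 2.22e-05), as did TUBB3 and NEUROD6 of 6 excitatory neuron genes and HBB, the globin of red blood cells. HBB was at 2802 CPM in the members of E50_1 and 244 in E60_3. EMX1 was the 1 of 11 telencephalic patterning genes that fell. Of 4 genes of midbrain, hindbrain and ventral patterning, PAX7 fell. Of 23 polarity, adhesion and matrix genes LLGL1 fell, of 17 cholesterol synthesis genes MVD, of 14 genes of glycolysis and hypoxia PGAM1 and BNIP3, and of 13 immediate early and stress genes HSPB1. None of 5 genes of ventricular radial glia and of 3 vascular genes was called.

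Some astrocyte genes rose in the forebrain members of E50_1, E60_3 and E70_3, a selection made after the data were seen. Of 10692 genes, 164 rose (1.53%) and 345 fell (3.23%). Of 14 astrocyte genes outside the rule, GFAP, SLC1A2 and CD9 rose and CST3 fell, with a median slope of 0.31 against -0.01 for all genes. GFAP was at 30.4 CPM in the forebrain members of E50_1, 110 in E60_3 and 301 in E70_3 (slope 1.62 ± 0.20 (SE), edgeR adjusted p = 0.000593). In IPs it was at 4.93, 15.7 and 47.1 CPM, and its slopes in the 2 classes differed by 0.06 without a call (adjusted p = 0.981). SLC1A2, the main glutamate transporter of astrocytes, was at 32.9, 205 and 320 CPM (slope 1.59 ± 0.28 (SE), edgeR adjusted p = 0.00933). CRYAB, 1 of 5 genes of ventricular radial glia, rose from 94.3 to 596 and 1140 CPM (slope 1.76). Summed over the 5 genes, levels rose in IPs too, with 377, 654 and 959 CPM in E50_1, E60_3 and E70_3. Of 11 radial glia markers outside the rule VIM fell, from 2402 to 1459 and 637 CPM (slope -0.98 ± 0.19 (SE), edgeR adjusted p = 0.00789). FEZF2 fell from 153 to 55.4 and 31.5 CPM (slope -1.20, adjusted p = 0.00605). EMX1 and DMRTA2 fell too, and these genes had chosen the forebrain members. The fit had 1 library for each day, so its error rests on how well the 3 days lie on a line. Among all members, those at the AQP4 limit of 4 UMIs were 3.64% in E50_1, 10.9% in E60_3 and 22.2% in E70_3. Their part in the slopes of astrocyte genes was not tested.

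**Figure D5:**
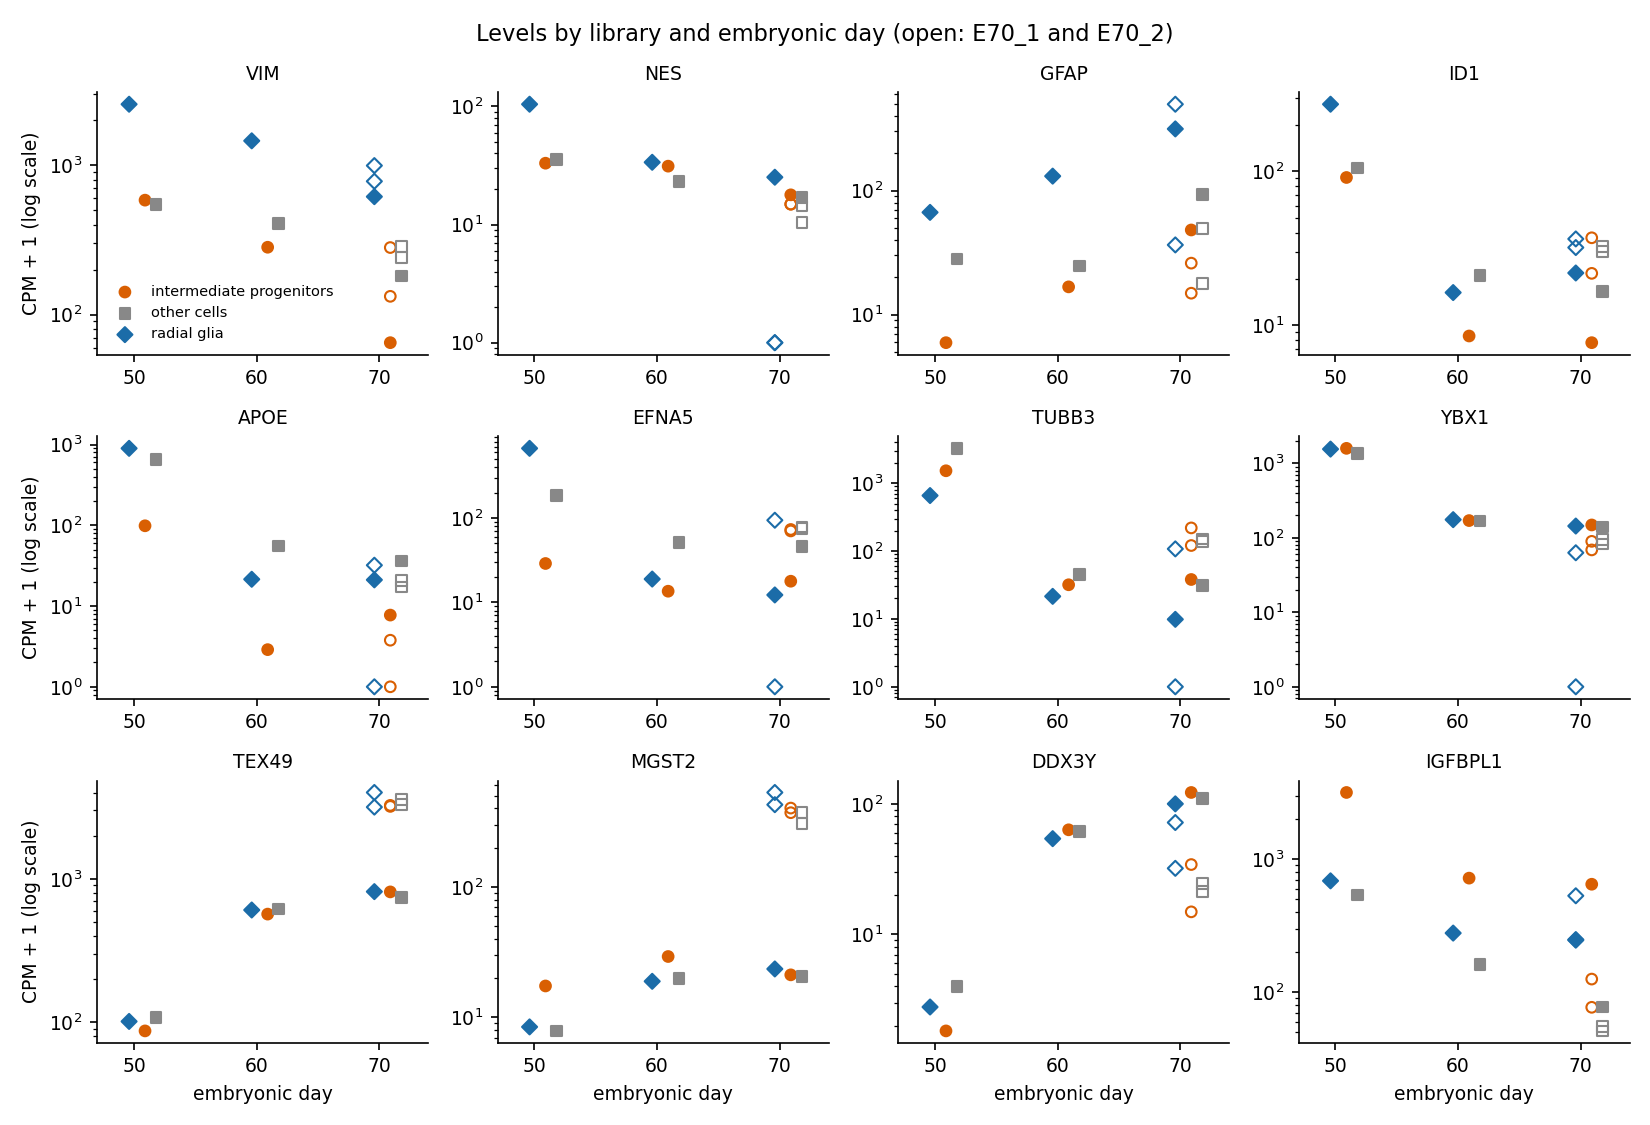
Levels (CPM + 1, log scale) of 12 genes by embryonic day in the radial glia, IPs and other cells of each library, with open symbols for E70_1 and E70_2, whose radial glia were 2 and 3 cells. TEX49 and MGST2 run together in the 3 classes, while the radial glia lie above both other classes for VIM in every library.

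The difference of the day slope between radial glia and IPs of the same libraries, with the library as a block, sets aside what the classes of a library share. Of 12200 genes tested, IGFBPL1 and CKB had a higher slope in radial glia (0.0164%) and 21 genes a lower slope (0.172%), and 139 and 631 genes had an unadjusted p under 0.05. IGFBPL1, which binds insulin-like growth factors, was at 3187, 722, 125, 76.2 and 649 CPM in IPs and at 689, 278, 532, 248 and 246 CPM in radial glia. The slopes differed by 1.09 ± 0.25 (SE, edgeR adjusted p = 0.0154), and without E70_1 and E70_2 by 0.48 (adjusted p = 0.151). The lower slopes included EFNA5 (difference -2.79 ± 0.40 (SE), edgeR adjusted p = 1.78e-08) and SPARCL1 (-2.61 ± 0.33 (SE), edgeR adjusted p = 4.07e-10), which marked the members of E50_1 with midbrain genes. In forebrain members their differences were -0.85 and -0.78 and were not called (adjusted p = 0.878 and 0.998). CRABP1, a retinoic acid carrier, kept its call there, with -2.20 ± 0.35 (SE, edgeR adjusted p = 2.35e-06) in all members and -1.94 (adjusted p = 0.00171) in forebrain members. It was at 140, 13.4, 0, 0 and 18.5 CPM in radial glia and at 32.0, 1.89, 5.55, 2.77 and 111 CPM in IPs.

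When forebrain members were set against IPs in E50_1, E60_3 and E70_3 alone, some astrocyte genes had a higher slope in the members. This choice of libraries was made after the data were seen. With E70_1 and E70_2 kept, 0 of 15 astrocyte genes outside the rule were called higher in all members, and SPARCL1 lower. In forebrain members GPR37L1 was then called higher, and CRABP1, SAMD4A and GABRB1 lower. The fit without E70_1 and E70_2 had 1 library for each day, so its error rests on how well the days lie on a line. Of 11540 genes, 38 had a higher slope in radial glia (0.329%) and 41 a lower one (0.355%). Among the higher were 4 of 14 astrocyte genes outside the rule, SLC1A2, CLU, NDRG2 and SLC4A4. The other 10 were not called, GFAP among them. NDRG2 was at 73.0, 114 and 152 CPM in forebrain members and at 54.2, 28.9 and 16.8 CPM in IPs (difference 1.48 ± 0.28 (SE), edgeR adjusted p = 0.0127). CLU, the secreted chaperone clusterin, was at 1840, 2268 and 3068 CPM against 1272, 1201 and 1003 (difference 0.59 ± 0.12 (SE), edgeR adjusted p = 0.0218). PTN, 1 of 8 outer radial glia genes, had a difference of 0.84 ± 0.14 (SE, edgeR adjusted p = 0.00954), with 4652, 7405 and 7345 CPM against 818, 1062 and 417. CSPG5, a proteoglycan of glia, was at 24.2, 115 and 124 CPM against 20.5, 20.7 and 10.1 (difference 1.97, adjusted p = 0.0155). ID3 had a difference of 2.34, with 44.8, 93.8 and 176 CPM against 11.5, 3.77 and 3.37. The IPs of E70_3 were 43 cells, so their low levels of ID3, CSPG5 and NDRG2 rest on few UMIs. GLI3, a transcription factor of SHH signalling, had a lower slope than in IPs, at 1521, 1054 and 656 CPM against 471, 693 and 538 (difference -0.67, adjusted p = 0.0236), as did SFRP1, a Wnt inhibitor. None of 13 Notch genes and none of 49 genes of G2 and M was called. The immediate early gene FOS, which dissociation of tissue can induce, also had a higher slope, with 267, 1508 and 1865 CPM in forebrain members against 230, 982 and 589 CPM in IPs. The part of dissociation in these differences was not tested.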

How the data were processed

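Single cells from the pig entorhinal cortex were captured with the 10X Genomics platform. The authors deposited 1 table of counts for each library, with the number of UMIs of each of 22452 genes in each cell before normalization. Reads were mapped with Cell Ranger to Sscrofa11.1, by the submitters' processing notes and the study's methods. Of the 7482 genes named by an Ensembl ID, 987 were given a symbol by an ID table. The 5 libraries held 6314174 to 55755512 UMIs, and their members 28217 to 5630659. E60_1, E60_2, the nuclei and the adult libraries entered no comparison.

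Members were found by the rule on raw counts. The members, the region genes and the gene lists were chosen with earlier results of these data known, so a list's count is no independent support. UMIs were summed over the members of each library and tested with edgeR 4.0.16 in R 4.3.3 (filterByExpr, TMM, robust quasi-likelihood fit, slope over the day, Benjamini-Hochberg adjustment). As cells are not replicates, the p-values of the slope rest on 5 libraries. Each earlier day had 1 library, so no spread between libraries was measured there. The spread used is that among the libraries of the last day and the departure from a line. In that last day the members of E70_1 and E70_2 were 2 and 3 cells. The slope difference was tested with the class by day term and a library block over the members and the IPs. CPM were summed UMIs of a gene over summed UMIs of all genes. Classes were set by limits on UMIs (microglia at least 10 of C1QA and C1QB, neurons at least 2 of NEUROD2 and NEUROD6). Doublets were not called, and an alternative left out cells over 3 times the median UMIs. Named genes were the 4 of the rule, the 12 of smallest p in each direction of the slope, the 8 of smallest p in each direction of the slope difference, and members of the lists. RYR3, GABRB1, NPY, DBX1, WLS, S100A1 and S100A6 were named after their values were seen. On simulated counts of 10505 genes the slope test found 87 of 94 genes with a log2 slope of 2 per 10 days, 14 of 90 with a slope of 1, and 3 false calls. These counts were drawn independently for each gene and library, with no effect shared within a library or sequencing pool. They therefore do not give the error rate of the calls in the data. Gene positions are those of RefSeq. Alternatives were the scaling, the low-count filter, DESeq2 1.42.0, each library left out, stage in place of the day, the sequencing pool as a block and the limits of the rule.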

Additional observations from a re-analysis of the deposited data

Results flagged for a closer look

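The slopes over the day differed between radial glia and IPs in 10 named genes, by the class by day term. In units of log2 per 10 days the slope in radial glia minus that in IPs was 1.09 for IGFBPL1 and 0.90 for CKB, and -2.61 for SPARCL1, -2.79 for EFNA5, -2.20 for CRABP1, -2.23 for HS3ST3A1, -1.55 for MED15, -1.76 for CPNE4, -2.55 for RSPO3 and -1.98 for LEF1. Among forebrain members CRABP1 was the 1 of these 10 that was called. HS3ST3A1 was at 63.2 CPM in the members of E50_1, 25.6 in E60_3 and 12.9 in E70_3, and at 1.64, 15.1 and 23.6 CPM in IPs. The IPs of E70_1 and E70_2 held 452 and 525 CPM of SPARCL1 against 10.1 in those of E70_3, and their PECAM1 was at 63.8 and 81.8 CPM against 0.

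Outside the 5 libraries the rule was met by 110 of 3479 cells of E60_2 (3.16%), of which 80 had midbrain genes only and 0 forebrain genes only. It was also met by 8 of 8171 cells of E60_1 (0.0979%), 5 of 858 nuclei of E70_nc (0.583%) and 5 of 737 cells of Adult_1 (0.678%). Of 2552 adult nuclei 0 met it (exact upper limit of the share 0.144%), where 3 nuclei would make 0.118%. The limit covers counting error only, and the adult nuclei had a median of 690 UMIs. Forebrain genes and no midbrain genes were found in 5 of the 5 cells of Adult_1 and in 1 of the 5 of E70_nc.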

How the results depend on the processing

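The counts of genes that rose and fell with the day (152 and 265) depended on the libraries and the limits. They were 254 and 609 with no low-count filter, 51 and 10 with DESeq2 (4654 genes with an adjusted p), 6 and 34 for E70 against E50, 0 and 0 for E70 against E60, 34 and 2 with the sequencing pool as a block, 36 and 121 in members with AQP4 at 0, 3 and 17 in members found after thinning to 3000 UMIs, and 64 rises in members without PECAM1, FLT1 or CD34. Leaving out 1 library gave 0 to 244 rises and 0 to 329 falls: 0 and 0 without E50_1, 9 and 31 without E60_3, 244 and 82 without E70_3. Of the 24 genes named for their slope, the sign changed for EFNA5 (0.074 for E70 against E60, and -3.16 to 0.056 when 1 library was left out, the latter without E50_1), SIVA1 (1.13) and UNC119 (2.66, both E70 against E60). Over 430 settings of these genes 279 kept direction and call, 147 kept the direction without a call and 4 changed sign.

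The 2 higher and 21 lower slope differences to IPs became 7 and 45 with DESeq2's size factors in edgeR, 0 and 0 with DESeq2, 1 and 8 with at least 6 UMIs of the rule's genes, 1 and 10 with IPs of at least 3 EOMES UMIs, 1 and 3 in forebrain members, 89 and 112 without E70_1 and E70_2, and 38 and 41 with both of the last. At least 3 UMIs gave 7 higher, and leaving out cells over 3 times the median UMIs gave 11 lower. Leaving out 1 library gave 0 to 4 higher and 0 to 28 lower. The share of radial glia (6.51%) was 7.98% and 4.19% at 3 and 6 UMIs, 3.37% with AQP4 at 0, 1.99% after thinning, 3.85% for forebrain members and 5.09% without endothelial genes. The share with mitosis genes (33.4%) was 39.7% in forebrain members, 67.5% without thinning and 53.2% for 1 or more UMIs. Its order among libraries depended on the limits. With AQP4 at 0 it was 30.4%, 47.2% and 46.0% in E50_1, E60_3 and E70_3. In members found after thinning to 3000 UMIs it was 38.1%, 4.76% and 17.1%, with 21 and 35 such members in E60_3 and E70_3. Settings on forebrain genes, endothelial genes and E70_1 with E70_2 were added after seeing the data, and the cause of these changes was not tested. No paired analysis was possible because days 50 and 60 had 1 library each (E50_1 and E60_3), so that no groups compared share 2 replicate numbers. The sequencing pool is a batch and pairs no samples.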
